A study of Homo sapiens with 6 samples.

Results

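Culture 1 was the culture of GM12873 cells from which the control library Control 1 and the lyophilized library Lyo 1 were made, 2 of the 6 RNA-Seq libraries of the study, and it was compared here with cultures 2 and 3, which gave the other 4 libraries. It was selected on a measured value: the 100 most abundant genes took a larger share of the summed FPKM (fragments per kilobase of transcript, scaled to the mapped reads of the library) in both of its libraries than in the others. The contrast therefore describes batches of a single cell line, not lyophilization, and every difference between culture 1 and the others is given as a description, with no test. GM12873 is a B-lymphoblastoid line, that is, B cells made to grow without limit in culture by Epstein-Barr virus (EBV).

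All libraries came from cells grown in RPMI-1640 with 15% FBS, antibiotics and glutamine to sub-confluency and washed in PBS. The 3 controls (Control 1, 2 and 3) were lysed in trizol directly, without drying. The 3 lyophilized samples (Lyo 1, 2 and 3) were freeze-dried in PBS with 0.1 M trehalose, a sugar used to protect dried cells, and stayed at room temperature for 2 weeks before lysis. The labels pair each control with a lyophilized sample, and the pairs share a replicate number, so each number is treated as a culture. The 6 libraries therefore stand for 3 cultures of a line from 1 donor, and an exact permutation test over cultures could not give a p below 0.333. The day of harvest, passage and cell density of each culture are not given in the sources used here, and their part in the differences was not tested.

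Lymphoblastoid cells divide without pause while nutrients last, and the state of a culture at harvest can be read from a few large gene programs. Genes for DNA synthesis are switched on by E2F factors as cells enter S phase, genes for mitosis follow in G2 and M, and nucleolar, proteasome and chaperone genes accompany growth. Cells that slow down express cell cycle inhibitors and FOXO targets such as CDKN1B and TSC22D3, while the EBV membrane protein LMP1 drives NF-kB and, through it, the surface and chemokine genes typical of these lines.

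The share of the 100 most abundant genes was 41.2% in Control 1 and 41.4% in Lyo 1, and between 34.7% and 36.8% in the other 4 libraries. Among these 100 genes were 55 encoding cytosolic ribosomal proteins, and all ribosomal protein genes together held 26.3% and 26.7% in culture 1 against 20.6% to 22.6% elsewhere. The difference in share was 5.31 percentage points, and 2.74 points when ribosomal protein genes were left out, a setting added with the data in view. Read from the steps between the lowest FPKM values, Control 1 was the shallowest library and Lyo 1 the deepest. Lyo 1 had 1.90 times the depth of Control 1, and the other 4 had 1.38 to 1.84 times. The part of depth in the differences was not tested. All 9 B cell markers and all 8 markers of EBV-transformed lymphoblasts had a mean FPKM above 1. The lymphoblast markers summed to 1516 and 1732 FPKM in culture 1 against 915.5 to 1105 in the others, and the 7 plasma cell markers to 577 and 588 against 630.1 to 656.7. Members differed within both lists: 6 of the 8 lymphoblast markers lay above the other cultures in each treatment, most of the sum coming from FCER2, EBI3 and CCL22, while TNFRSF8 lay below them and CR2 did not keep a side. Of the plasma cell markers, IRF4, MZB1 and TNFRSF17 lay below both other cultures in each treatment and XBP1 and IGJ above. None of 6 T cell markers reached a mean of 1 FPKM (CD3G was listed at 0), nor did any of 4 erythroid or 4 fibroblast markers, and of the NK cell and myeloid markers only NKG7 and S100A9 did. In RNA from whole cultures, fewer cells of a type and less RNA per cell cannot be told apart.

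**Figure D1:**
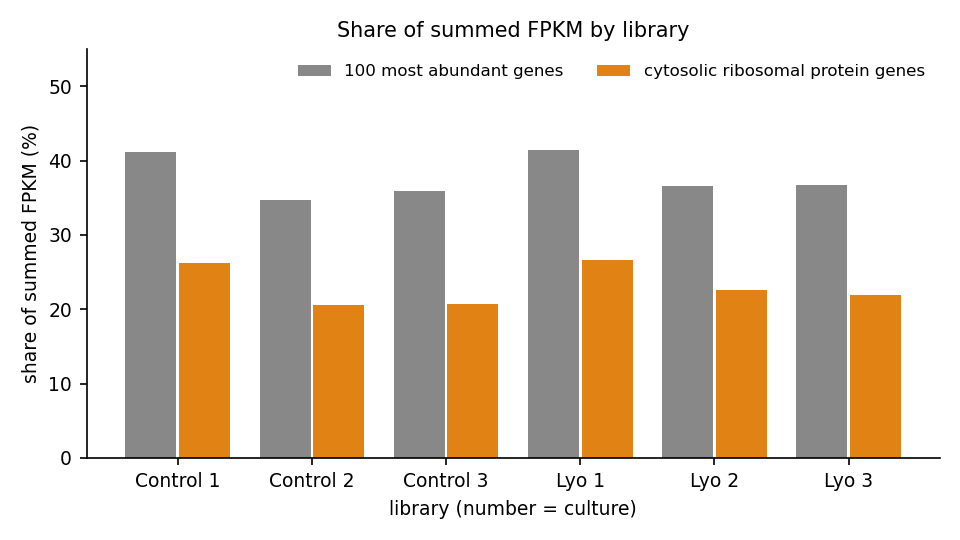
Share of summed FPKM (percent, from 0) held in each of the 6 libraries by the 100 most abundant genes (grey bars) and by the cytosolic ribosomal protein genes (orange bars), 1 value per library. Control 1 and Lyo 1 stand above the other 4 libraries for both shares, at 41.2% and 41.4% for the 100 genes. These values chose culture 1.

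To see which genes followed this split, the 11134 genes whose mean FPKM passed 1 in either treatment were fitted with limma on log2(FPKM + 0.1), with treatment as a term. Differences below are log2 units of culture 1 minus the mean of cultures 2 and 3 on this scale, ± the SE of the fit (n = 6 libraries), and a gene is called higher or lower at a Benjamini-Hochberg adjusted p of 0.05, used only to sort genes. In all, 3660 genes were called, 1185 higher (10.6% of the genes tested) and 2475 lower (22.2%). This fit takes the control and the lyophilized library of a culture as separate samples. With culture as a random effect 2609 genes were called, and with 1 mean value per culture, 1 culture against 2, the count was 2066. Beside the larger share of abundant genes, the median difference of all genes was -0.12, and each gene or list is to be read against that shift. The split between directions followed the scaling: 32.4% of calls were higher with FPKM as deposited, 61.2% after centring each library on its median, 50.1% after quantile normalization and 15.7% after rescaling to TPM. Under all 4 scalings, 720 genes were called higher and 1175 lower. By size, 112 genes were called at least 2-fold higher and 70 at least 2-fold lower.

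The same genes could be followed within each treatment without any fit. Culture 1 lay above both other cultures in the controls and again in the lyophilized libraries for 2399 genes (21.5%), below both in each treatment for 4771 (42.9%), and on opposite sides in the 2 treatments for 726. Across the 11134 genes, the difference in the controls and that in the lyophilized libraries correlated at Pearson r = 0.716, where the values on the 2 axes come from the same 3 cultures but from different libraries. The SD over genes was 0.39 for culture 1 against the mean of the other 2 and 0.24 for culture 2 against culture 3. Culture 1 was chosen because it stood apart in the share of abundant genes, which bears on the first value. The first also takes a mean of 2 cultures and the second does not, so the 2 are unlike measures. Called genes differed in base composition, with a median transcript GC content of 55.2% for those higher, 43.5% for those lower and 48.95% for those not called. Spearman's rho between GC content and the difference was 0.43 in the controls and 0.22 in the lyophilized libraries, and a fit corrected for GC content and transcript length called 3793 genes. The number of calls leaned on Control 1: 281 genes were called without it, of which 279 were also called in the same direction with all libraries, and 1308 were called without Lyo 1, of which 1262 were.

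**Figure D2:**
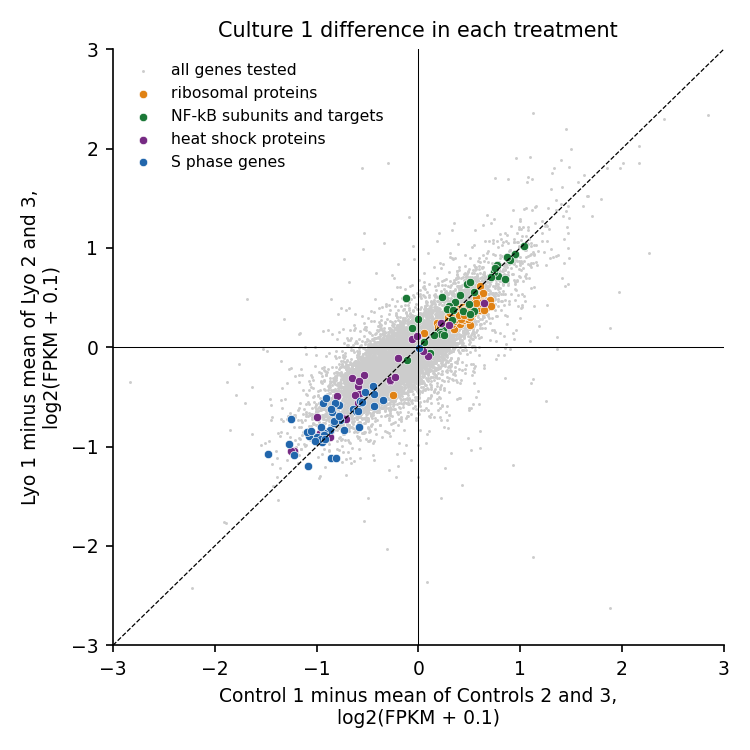
Difference of culture 1 from the mean of cultures 2 and 3 in the controls (horizontal axis) and in the lyophilized libraries (vertical axis), in log2(FPKM + 0.1), 1 point per gene, with 16 of 11134 genes outside the axes. S phase genes lie at the lower left along the dashed line of equality, heat shock genes partly beside them, and ribosomal protein and NF-kB genes at the upper right.

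A reading free of the fit took genes in the controls and followed them in the lyophilized libraries, which were not used to pick these genes. Lyo 1 did enter the choice of culture 1 itself, so the reading is not independent of that choice. Control 1 lay at least 2-fold above both other controls for 74 genes, and Lyo 1 lay above both other lyophilized libraries for 68 of them (91.9%, against 29.1% of all genes tested), with a median difference of 1.20 there. For the 88 genes at least 2-fold below both other controls, Lyo 1 lay below both others for 73 (82.95%, against 50.9% of all genes), with a median difference of -0.72. Both sets of libraries come from the same 3 cultures, so the counts describe the same cultures with and without drying and storage and no further culture. Just inside the limit were EFEMP2, at 4.18, 1.11 and 2.04 FPKM in Controls 1, 2 and 3, and NET1, at 3.26, 7.65 and 6.63, and just outside it were SOCS1, at 42.7, 21.0 and 21.4, and HIST1H2AI, at 1.65, 3.39 and 5.14.

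The genes with the largest higher values in culture 1 have varied known roles. WFDC2, a secreted protein of the whey acidic protein family, was at 15.7, 2.05 and 4.01 FPKM in Controls 1, 2 and 3 and 14.1, 2.19 and 3.55 in Lyo 1, 2 and 3, a difference of 2.35 ± 0.25. FXYD2, a regulatory subunit of the sodium pump, was at 36.1, 10.0 and 7.85 FPKM in Controls 1, 2 and 3 and 33.2, 10.7 and 7.78 in Lyo 1, 2 and 3, a difference of 1.93 ± 0.15. TMEM120A, a membrane protein of the nuclear envelope, was at 50.5, 12.7 and 15.2 FPKM in Controls 1, 2 and 3 and 49.0, 13.4 and 14.5 in Lyo 1, 2 and 3, a difference of 1.83 ± 0.10. For each of these 3 genes the culture 1 libraries stood far above all others, and the control and the lyophilized library of each culture lay close together. SAT1, which acetylates polyamines for breakdown and export, reached 201, 55.4 and 83.4 FPKM in Controls 1, 2 and 3 and 233, 58.2 and 92.9 in Lyo 1, 2 and 3 (1.61 ± 0.19). GDF15, a secreted stress cytokine, reached 19.5, 6.76 and 7.36 FPKM in Controls 1, 2 and 3 and 17.7, 6.50 and 7.01 in Lyo 1, 2 and 3 (1.42 ± 0.10). VIM, the intermediate filament vimentin, was at 129.6, 48.2 and 64.2 FPKM in Controls 1, 2 and 3 and 122.6, 42.0 and 61.6 in Lyo 1, 2 and 3 (1.24 ± 0.16). The remaining members of the 15 with the largest values were MAL (1.89 ± 0.21), a membrane proteolipid of lymphocytes, DNASE1L3 (1.60 ± 0.12), a secreted nuclease, RHOV (1.34 ± 0.10) and RRAS (1.26 ± 0.16), both small GTPases, SERINC2 (1.23 ± 0.12), TP53INP1 (1.20 ± 0.17), a p53 target, RAB37 (1.15 ± 0.31), TNFRSF4 (1.15 ± 0.12), the costimulatory receptor OX40, and CCNI2 (1.14 ± 0.09). In cultures 2 and 3 these genes were not at 1 level: RAB37 was at 8.16, 2.25 and 4.67 FPKM in Controls 1, 2 and 3, so that culture 3 lay between the others.

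The 15 genes with the largest lower values included several known from DNA replication and mitosis. FAM111B, a protease linked to DNA replication, ESCO2, which acetylates cohesin in S phase, E2F8, a repressor in the E2F family, POLE2, a subunit of DNA polymerase epsilon, MCM10, a replication initiation factor, and SKA3 and ZWINT, both of the kinetochore, had differences from -1.29 ± 0.12 to -1.13 ± 0.14. POLE2 was at 3.23, 7.75 and 6.24 FPKM in Controls 1, 2 and 3 and 3.33, 8.57 and 6.99 in Lyo 1, 2 and 3, a difference of -1.14 ± 0.13. ZWINT was at 35.7, 91.6 and 71.3 FPKM in Controls 1, 2 and 3 and 40.5, 97.2 and 76.4 in Lyo 1, 2 and 3. For both genes each culture 1 library lay below all 4 others. The chaperones HSPH1 (-1.15 ± 0.22) and HSP90AA1 (-1.13 ± 0.24) were also in this group, with FAM81A (-1.35 ± 0.12), TPRG1 (-1.31 ± 0.15), the histone gene HIST1H4I (-1.34 ± 0.21), the imprinted retrotransposon-derived gene PEG10 (-1.25 ± 0.12) and CHAC2 (-1.14 ± 0.13), a glutathione-degrading enzyme.

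**Figure D3:**
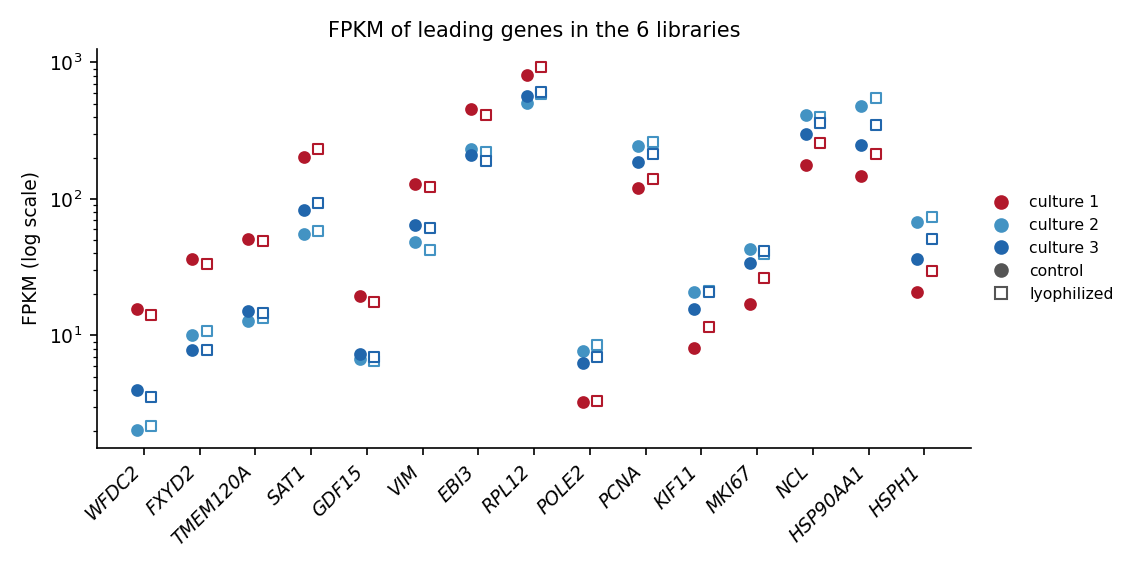
FPKM on a log scale of 15 genes in the 6 libraries, with colour for the culture, filled circles for controls and open squares for lyophilized libraries, 1 symbol per library. Culture 1 (red) lies highest for the 8 genes from WFDC2 to RPL12 and lowest for the 7 from POLE2 to HSPH1, while cultures 2 and 3 (blue) lie nearer to each other except for HSP90AA1 and HSPH1.

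Cell cycle genes were lower in culture 1 almost without exception. Of 43 S phase genes tested, 42 were called lower and none higher, with a median difference of -0.78, -0.85 in the controls and -0.74 in the lyophilized libraries. Of 44 G2/M genes, 39 were called lower and none higher, with a median of -0.56. PCNA, the sliding clamp of DNA polymerases, was at 120.3, 243 and 188 FPKM in Controls 1, 2 and 3 and 141, 259.6 and 212 in Lyo 1, 2 and 3 (-0.78 ± 0.12). POLA1, the catalytic subunit of DNA polymerase alpha, was at 4.18, 12.3 and 8.51 FPKM in Controls 1, 2 and 3 and 5.95, 12.3 and 11.3 in Lyo 1, 2 and 3 (-1.13 ± 0.15). Each culture 1 value lay below all 4 others for both genes. CLSPN, a checkpoint adaptor at replication forks, had the largest difference of the S phase genes (-1.27 ± 0.17), and TYMS, thymidylate synthase, at -0.45 ± 0.10, had a smaller value but was called as well. In G2/M, KIF11, the motor that separates spindle poles, was at 8.13, 20.8 and 15.5 FPKM in Controls 1, 2 and 3 and 11.6, 21.1 and 20.7 in Lyo 1, 2 and 3 (-0.99 ± 0.13), and MKI67, the proliferation antigen Ki-67, at 16.9, 42.9 and 34.2 FPKM in Controls 1, 2 and 3 and 26.5, 39.6 and 41.7 in Lyo 1, 2 and 3 (-0.89 ± 0.14). NDC80 of the kinetochore (-0.86 ± 0.16), the mitotic kinesin KIF20B (-0.85 ± 0.13) and the spindle protein HMMR (-0.84 ± 0.13) had similar values, whereas PTTG1, securin, was not called, at -0.14 ± 0.08, which is near the median of all genes. Culture 2 lay above culture 3 by a median of 0.19 for the S phase genes and 0.20 for the G2/M genes, so the order was culture 2, culture 3, culture 1. Under median centring the S phase median was -0.645 and under quantile normalization -0.68. The counts leaned on the library Control 1: without it, 18 S phase and 2 G2/M genes were called, with medians of -0.74 and -0.53, and without Lyo 1 36 and 23.

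Promoters were searched for short motifs known from S phase and G2/M genes, and those of the named, called members with a match and the largest differences are shown. The 250 bases before the annotated start were taken from RefSeq promoters on GRCh38.p14, 5′ to 3′ on the strand of the gene, and searched on both strands for the E2F words TTTGGCGC, TTTCCCGC, TTTCGCGC and TTTGCCGC and for the cell cycle homology region (CHR) TTTGAA. The capitals mark the matches.
POLA1, chrX:24693668-24693917, with the E2F word read on the reverse strand: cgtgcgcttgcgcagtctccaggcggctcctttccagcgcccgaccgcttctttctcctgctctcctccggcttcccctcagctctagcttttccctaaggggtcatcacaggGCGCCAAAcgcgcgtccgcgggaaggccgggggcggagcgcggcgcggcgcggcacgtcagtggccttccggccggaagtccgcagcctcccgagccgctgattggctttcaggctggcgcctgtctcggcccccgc
E2F2, chr1:23531234-23531483, with an E2F word: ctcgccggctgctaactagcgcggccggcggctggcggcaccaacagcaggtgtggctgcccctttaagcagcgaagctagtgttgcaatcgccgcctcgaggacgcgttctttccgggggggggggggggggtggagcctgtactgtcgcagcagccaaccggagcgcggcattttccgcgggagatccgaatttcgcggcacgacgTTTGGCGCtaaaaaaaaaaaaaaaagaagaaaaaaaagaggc
KIF11, chr10:92592880-92593129, with the CHR on the reverse strand: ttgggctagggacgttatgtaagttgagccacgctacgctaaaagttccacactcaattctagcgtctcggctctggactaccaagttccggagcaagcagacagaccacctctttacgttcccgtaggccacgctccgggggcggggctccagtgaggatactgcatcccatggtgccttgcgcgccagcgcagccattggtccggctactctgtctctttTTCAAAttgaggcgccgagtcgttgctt
MKI67, chr10:128126424-128126673, with 2 CHR matches: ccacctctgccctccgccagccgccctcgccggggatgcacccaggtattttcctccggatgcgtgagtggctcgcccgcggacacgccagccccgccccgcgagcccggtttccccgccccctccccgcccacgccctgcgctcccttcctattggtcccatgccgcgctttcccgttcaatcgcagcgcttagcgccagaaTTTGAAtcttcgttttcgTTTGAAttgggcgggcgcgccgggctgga
An E2F word stood in 15 of the 36 S phase promoters found (41.7%), in 2 of 37 G2/M promoters (5.4%) and in 761 of all 27305 promoters of the table (2.8%). The CHR stood in 20 of 37 G2/M promoters (54.1%), in 1 of 36 S phase promoters (2.8%) and in 3704 of all promoters (13.6%). Among the 7957 genes tested with a promoter, 4.7% held an E2F word and 8.4% the CHR. A match is a description of the letters and not a bound site.

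Histone genes of the replication-dependent class, whose transcripts normally end without a poly(A) tail and whose copies are near-identical, are measured with less certainty after poly(A) selection and unique mapping. Of 60 tested, 31 were called lower and 1 higher, with a median of -0.49, -0.63 in the controls and -0.31 in the lyophilized libraries. HIST1H2BK, an abundant member, was at 81.9, 98.7 and 110.1 FPKM in Controls 1, 2 and 3 and 91.9, 109.7 and 127 in Lyo 1, 2 and 3 (-0.35 ± 0.09), with culture 1 below the other 2 in each treatment. HIST1H1C, the most abundant, was at 157, 157 and 227 FPKM in Controls 1, 2 and 3 and 155, 165 and 224 in Lyo 1, 2 and 3 and was not called (-0.29 ± 0.16). The count was 4 lower without Control 1 and 30 without Lyo 1.

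Genes of protein and ribosome production split into those that were lower and those that were higher. Of 32 MYC targets and nucleolar genes, 19 were called lower and 1 higher (median -0.38). NCL, nucleolin, was at 178, 413 and 298 FPKM in Controls 1, 2 and 3 and 257, 401 and 359.6 in Lyo 1, 2 and 3 (-0.77 ± 0.14). LYAR (-0.70 ± 0.17), RRS1 (-0.66 ± 0.12), NOP56 (-0.65 ± 0.14) and NME1 (-0.63 ± 0.18) were also called, and NPM1, nucleophosmin, was not (-0.30 ± 0.12). MYC itself was called higher, at 124, 98.3 and 106 FPKM in Controls 1, 2 and 3 and 113, 80.9 and 91.6 in Lyo 1, 2 and 3 (0.34 ± 0.09), although not under all scalings. Of 41 proteasome genes, 16 were called lower and none higher (median -0.31), with PSMD1, a scaffold of the regulatory particle, at 19.4, 52.5 and 31.3 FPKM in Controls 1, 2 and 3 and 27.5, 54.0 and 36.0 in Lyo 1, 2 and 3 (-0.87 ± 0.21), PSMD2 at -0.65 ± 0.13 and PSMD12 at -0.64 ± 0.14. Of 73 mitochondrial ribosomal protein genes, 20 were called lower and 1 higher (median -0.24), with MRPS9 (-0.56 ± 0.11) and MRPL1 (-0.53 ± 0.12) the largest. The mitochondrial share, 27.4% lower, was near the 22.2% of all genes, and 11 of these genes were called lower with culture as a random effect and 7 after quantile normalization. Under all 4 scalings, 8 MYC and nucleolar, 4 proteasome and 3 mitochondrial ribosomal protein genes were called lower, and the proteasome median was -0.17 after centring. Without Control 1, none of the members of these 3 lists was called in either direction, with medians of -0.36, -0.29 and -0.25, and without Lyo 1 5, 2 and 2 were called lower.

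Cytosolic ribosomal proteins, the components of the 40S and 60S subunits, were the opposite. Of 80 genes tested, 75 were called higher and none lower, with a median of 0.39. Culture 1 was chosen for the share held by the 100 most abundant genes, 55 of which encode ribosomal proteins, so that their higher values are largely fixed by that choice, and the same choice bears on the other abundant genes named. RPL12 was at 814, 502 and 566 FPKM in Controls 1, 2 and 3 and 921, 591 and 611 in Lyo 1, 2 and 3 (0.61 ± 0.08). RPS19 was at 3143, 1909 and 1945 FPKM in Controls 1, 2 and 3 and 2987, 2239 and 2059 in Lyo 1, 2 and 3 (0.59 ± 0.07). Both culture 1 values lay above all 4 others for these genes. RPL28 (0.59 ± 0.07), RPS27 (0.57 ± 0.08) and the most abundant, RPL37A (0.49 ± 0.07) and RPLP1 (0.40 ± 0.06), were in the same range. This result depended on the scaling. Quantile normalization gives every library the same set of values, assigned by rank. After it the median was 0.05, 18 members were called higher and 1 lower, and RPLP1 was at -0.03. Centring gave a median of 0.53 and rescaling to TPM 0.27, and 17 members were called higher under all 4 scalings. Without Control 1, 2 members were called, with a median of 0.34, and without Lyo 1 48. Translation factors divided: of 39, 14 were called higher and 10 lower (median 0.11), after quantile normalization 6 and 9 (median 0.02), and under all 4 scalings 5 and 4. The share of these factors called lower, 25.6%, was near the 22.2% of all genes tested. Among those higher with FPKM as deposited were EEF2, which moves the ribosome along the mRNA, at 1599.9, 998 and 1203 FPKM in Controls 1, 2 and 3 and 1552, 968 and 1081 in Lyo 1, 2 and 3 (0.57 ± 0.09), EIF1 (0.59 ± 0.08), EIF3L (0.56 ± 0.09), TPT1 (0.45 ± 0.06) and GNB2L1, which encodes the ribosome-bound RACK1 (0.51 ± 0.06). Among those lower were EIF5B (-0.67 ± 0.13), which joins the subunits, and EIF1AX (-0.62 ± 0.11). Without Control 1, 1 factor was called higher and none lower, and without Lyo 1 7 and 3.

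Chaperone genes were lower in culture 1, but cultures 2 and 3 also differed. Of 29 heat shock proteins and cochaperones tested, 13 were called lower and 3 higher (median -0.49). HSP90AA1, the inducible cytosolic HSP90, was at 148, 479 and 248 FPKM in Controls 1, 2 and 3 and 213, 553 and 350.3 in Lyo 1, 2 and 3 (-1.13 ± 0.24). HSPH1, a nucleotide exchange factor for HSP70, was at 21.0, 68.3 and 36.4 FPKM in Controls 1, 2 and 3 and 29.7, 73.6 and 51.3 in Lyo 1, 2 and 3 (-1.15 ± 0.22). In both treatments culture 2 was the highest, culture 3 lay between and culture 1 was the lowest. HSPE1, the mitochondrial cochaperonin, was at 71.2, 168 and 101 FPKM in Controls 1, 2 and 3 and 83.7, 197 and 123.5 in Lyo 1, 2 and 3 (-0.88 ± 0.21), and CHORDC1 (-0.91 ± 0.18) and CACYBP (-0.86 ± 0.15), both partners of HSP90, followed. HSPA8, the constitutive HSP70, was at 537, 1003 and 633 FPKM in Controls 1, 2 and 3 and 612, 1129 and 715 in Lyo 1, 2 and 3, a similar order, and was not called (-0.56 ± 0.20). The median of culture 2 minus culture 3 over the list was 0.44, close in size to the difference of culture 1. No member was called without Control 1, at a median of -0.39, and 7 were called lower without Lyo 1.

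The heat shock element was looked for as 3 units, GAA and TTC in alternation with 2 bases of any kind between them, starting with either. It stood in 4 of 24 promoters of the chaperone list (16.7%) and in 120 of all 27305 (0.4%), and CHORDC1 is shown because it was the called, named member with a match and the largest difference.
CHORDC1, chr11:90223050-90223299, with 3 overlapping matches in capitals: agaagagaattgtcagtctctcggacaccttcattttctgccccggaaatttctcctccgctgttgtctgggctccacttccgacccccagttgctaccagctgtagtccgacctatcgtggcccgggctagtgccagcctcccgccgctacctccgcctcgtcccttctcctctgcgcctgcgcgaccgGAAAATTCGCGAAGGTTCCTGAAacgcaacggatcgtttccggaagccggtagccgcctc

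Genes of the unfolded protein response, which serves folding in the endoplasmic reticulum, were called lower for 12 of 25 members and higher for 4 (median -0.17), and the named ones below showed the same order of cultures. SDF2L1 was at 28.4, 63.9 and 43.0 FPKM in Controls 1, 2 and 3 and 28.4, 75.5 and 45.4 in Lyo 1, 2 and 3 (-0.96 ± 0.20). CALR, calreticulin, was at 257, 507 and 362 FPKM in Controls 1, 2 and 3 and 257, 486 and 344 in Lyo 1, 2 and 3 (-0.70 ± 0.15), and MANF (-0.63 ± 0.17), CRELD2 (-0.64 ± 0.15) and HSP90B1 (-0.62 ± 0.15) were called too. Without Control 1 none was called and without Lyo 1 3 were called lower. The amino acid response did not share this order: of 38 ATF4 targets 9 were called higher and 8 lower, with PPP1R15A (0.79 ± 0.09), DDIT3 (0.73 ± 0.10) and CHAC1 (0.54 ± 0.12) higher, ALDH1L2 lower (-0.64 ± 0.14), and ATF4 itself not called (0.19 ± 0.09). Without Control 1, 2 ATF4 targets were called higher, and without Lyo 1 3 higher and 4 lower.

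Genes of the NF-kB pathway, which EBV keeps active in these lines, were higher in culture 1. Of 36 NF-kB subunits and targets, 23 were called higher and none lower (median 0.41), and the median of culture 2 minus culture 3 was -0.005. EBI3, a cytokine subunit induced by EBV in B cells, was at 453, 234 and 209.9 FPKM in Controls 1, 2 and 3 and 415, 221 and 189 in Lyo 1, 2 and 3 (1.03 ± 0.09). NFKBIE, an inhibitor of NF-kB and itself a target, was at 87.3, 42.7 and 48.0 FPKM in Controls 1, 2 and 3 and 83.8, 42.8 and 44.7 in Lyo 1, 2 and 3 (0.94 ± 0.09). RELB, a subunit of the noncanonical pathway, was at 30.6, 15.8 and 17.1 FPKM in Controls 1, 2 and 3 and 27.4, 15.8 and 14.0 in Lyo 1, 2 and 3 (0.89 ± 0.10). All culture 1 values lay above those of the other cultures for these 3 genes. CCR7, the lymph node homing receptor (0.94 ± 0.12), and TNFAIP2 (0.89 ± 0.09) were called as well. LTA, lymphotoxin alpha, which is listed at 7 loci, was at 322, 291 and 329 FPKM in Controls 1, 2 and 3 and 299, 277 and 299.7 in Lyo 1, 2 and 3 and was not called (0.06 ± 0.08). Of 22 chemokines and cytokines, 11 were called higher and 2 lower (median 0.47). CCL3, an inflammatory chemokine, was at 584, 259 and 325 FPKM in Controls 1, 2 and 3 and 559.8, 289 and 326 in Lyo 1, 2 and 3 (0.94 ± 0.10), and its near-identical copy CCL3L1 (0.98 ± 0.20) and CCL4L1 (0.85 ± 0.21), a copy of CCL4, were also higher, though reads cannot be assigned to such copies with certainty. IL32 had a difference of 0.92 ± 0.09, and IL12A, a subunit of interleukin 12, was lower (-0.96 ± 0.16). Without Control 1, 10 NF-kB genes and 4 chemokines or cytokines were called higher, with medians of 0.44 and 0.36, and without Lyo 1 13 and 5.

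A match to the NF-kB consensus stood in 10 of 32 promoters of the NF-kB list (31.2%) and in 2614 of all 27305 (9.6%). Among the 7957 genes tested with a promoter the share was 11.6%. EBI3 is shown as the member with the largest difference.
EBI3, chr19:4229273-4229522, with the match in capitals: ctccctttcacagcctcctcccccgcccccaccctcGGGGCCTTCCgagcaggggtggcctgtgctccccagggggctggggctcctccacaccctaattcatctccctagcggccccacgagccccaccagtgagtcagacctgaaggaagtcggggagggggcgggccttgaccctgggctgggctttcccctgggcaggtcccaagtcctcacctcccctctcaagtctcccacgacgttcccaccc

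Immediate early genes, which respond to signals within minutes, were also higher: 20 of 31 were called higher and 3 lower (median 0.48). DUSP2, a phosphatase of MAP kinases, was at 295, 149.7 and 175 FPKM in Controls 1, 2 and 3 and 258, 140.3 and 148 in Lyo 1, 2 and 3 (0.85 ± 0.09). DUSP4 (0.87 ± 0.10) and the nuclear receptors NR4A1 (0.95 ± 0.21) and NR4A3 (1.02 ± 0.25) had similar values, and FOSL2, at 2.12, 0.73 and 0.76 FPKM in Controls 1, 2 and 3 and 1.88, 0.59 and 0.67 in Lyo 1, 2 and 3, had the largest (1.42 ± 0.20) at a low level. For NR4A1 the order was culture 1, culture 3, culture 2 in each treatment. The count was 4 without Control 1 and 5 without Lyo 1, with medians of 0.48 and 0.51.

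Growth arrest and quiescence genes stood on the same side. Of 27 p53 targets, 14 were called higher and none lower (median 0.36), and 9 with culture as a random effect. CDKN1A, the inhibitor p21, was at 268, 194 and 177 FPKM in Controls 1, 2 and 3 and 249, 192 and 166 in Lyo 1, 2 and 3 (0.51 ± 0.09). BBC3, the proapoptotic protein PUMA, was at 17.7, 9.48 and 9.98 FPKM in Controls 1, 2 and 3 and 14.3, 8.29 and 7.73 in Lyo 1, 2 and 3 (0.85 ± 0.09), with culture 1 above both others in each treatment. GADD45A (0.62 ± 0.09) and GADD45B (0.57 ± 0.08) were called, and BAX, at 209, 214 and 177 FPKM in Controls 1, 2 and 3 and 196, 205 and 166 in Lyo 1, 2 and 3, was not (0.10 ± 0.11). Of 17 FOXO and quiescence genes, 7 were called higher and 1 lower (median 0.47). TSC22D3, also known as GILZ, was at 96.6, 37.2 and 58.5 FPKM in Controls 1, 2 and 3 and 94.2, 39.2 and 55.8 in Lyo 1, 2 and 3 (1.03 ± 0.18). PIK3IP1 (0.84 ± 0.14), an inhibitor of PI3 kinase, TXNIP (0.60 ± 0.11), BTG1 (0.50 ± 0.11) and CDKN1B, the inhibitor p27, at 24.4, 16.9 and 19.3 FPKM in Controls 1, 2 and 3 and 28.3, 16.5 and 21.6 in Lyo 1, 2 and 3 (0.50 ± 0.12), were called higher. Of 35 autophagy and lysosome genes under TFEB, 13 were called higher and 2 lower (median 0.24), among them the autophagy receptor SQSTM1, at 85.9, 55.1 and 47.2 FPKM in Controls 1, 2 and 3 and 82.5, 51.6 and 43.5 in Lyo 1, 2 and 3 (0.78 ± 0.10), the protease CTSB (0.89 ± 0.15) and the cholesterol carrier NPC2 (0.64 ± 0.09). Without Control 1, 3, 0 and 1 members of these 3 lists were called higher, and without Lyo 1 5, 2 and 3.

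Antigen presentation and B cell surface genes were higher, while secretory genes of plasma cells divided. Of 14 MHC class II genes, 9 were called higher and none lower (median 0.37). HLA-DRA was at 2369, 1547 and 1587 FPKM in Controls 1, 2 and 3 and 2618, 1790.0 and 1748 in Lyo 1, 2 and 3 (0.58 ± 0.06), and CD74, the invariant chain, at 2864, 2159 and 2445 FPKM in Controls 1, 2 and 3 and 2552, 1884 and 1963 in Lyo 1, 2 and 3 (0.36 ± 0.07). Of 15 genes of MHC class I and peptide loading, 9 were called higher and 4 lower (median 0.36), with HLA-E (0.79 ± 0.12) and B2M (0.36 ± 0.06) higher and the loading chaperones CALR and PDIA3 (-0.49 ± 0.10) lower. The share of this list called lower, 26.7%, was near the 22.2% of all genes tested. The HLA symbols are listed at several loci and are close in sequence, so their values are less certain. Of 33 B cell identity genes, 12 were called higher and 2 lower (median 0.27). FCER2, the EBV-induced receptor CD23, was at 649, 381 and 412 FPKM in Controls 1, 2 and 3 and 578, 343 and 362 in Lyo 1, 2 and 3 (0.71 ± 0.07), CD40 at 176, 106 and 99.5 FPKM in Controls 1, 2 and 3 and 173, 114 and 97.0 in Lyo 1, 2 and 3 (0.75 ± 0.09), and the chemokine receptor CXCR4 at 0.72 ± 0.12. Of 21 genes of the plasma cell program, 4 were called higher and 6 lower (median -0.08). IRF4, a regulator of plasma cells that EBV lines also need, was lower (-0.49 ± 0.09), as was the secretory factor DERL3 (-0.75 ± 0.10), whereas CD27 was higher (0.52 ± 0.11). Without Control 1, 2 MHC class II, 1 MHC class I and 3 B cell identity genes were called higher, and without Lyo 1 5, 6 and 3. For the plasma cell program, 1 gene was called lower without Control 1 and 2 without Lyo 1.

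Metabolic genes were read in 5 lists. Of 23 glycolysis genes, 8 were called higher and 1 lower (median 0.22), among them GAPDH, at 5845, 3743 and 4365 FPKM in Controls 1, 2 and 3 and 5852, 3914 and 4396 in Lyo 1, 2 and 3 (0.51 ± 0.08), and ALDOC, at 355, 159.6 and 256 FPKM in Controls 1, 2 and 3 and 321, 160.4 and 240.4 in Lyo 1, 2 and 3 (0.76 ± 0.19). Of 22 hypoxia-inducible genes, 9 were called higher and none lower (median 0.22), and 5 with culture as a random effect. MXI1, an antagonist of MYC, was at 9.16, 3.91 and 4.35 FPKM in Controls 1, 2 and 3 and 7.93, 4.03 and 3.65 in Lyo 1, 2 and 3 (1.08 ± 0.11), NDRG1 was higher at a low level (1.40 ± 0.25), and VEGFA was at 36.1, 19.0 and 23.6 FPKM in Controls 1, 2 and 3 and 27.9, 15.8 and 20.7 in Lyo 1, 2 and 3 (0.69 ± 0.13). LDHA, lactate dehydrogenase, was at 804, 872 and 815 FPKM in Controls 1, 2 and 3 and 904, 939.7 and 932 in Lyo 1, 2 and 3 and was not called (-0.06 ± 0.07). Cholesterol synthesis did not set culture 1 apart: none of 24 genes was called higher and 1 lower, with a median of -0.03, while culture 2 lay below culture 3 by a median of 0.48. FDPS, an enzyme of the mevalonate pathway, was at 364, 245 and 382 FPKM in Controls 1, 2 and 3 and 348, 251 and 368 in Lyo 1, 2 and 3, with culture 2 apart from the others. Of 12 fatty acid synthesis genes 3 were called lower, including ACACA, acetyl-CoA carboxylase (-0.56 ± 0.13), and of 76 respiratory chain genes 3 were called higher and 12 lower (median -0.06). The shares called lower, 25.0% and 15.8%, were near or below the 22.2% of all genes. Under all 4 scalings, 4 glycolysis and 4 hypoxia genes were called higher and 1 respiratory chain gene in each direction. Without Control 1 none of the glycolysis, cholesterol, fatty acid and respiratory chain genes and 1 of the hypoxia genes was called, and without Lyo 1 1 glycolysis, 3 fatty acid and 2 hypoxia genes were.

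The other lists were mixed. Of 50 interferon-stimulated genes, 10 were called higher and 4 lower, with ISG15 at 666, 349 and 495 FPKM in Controls 1, 2 and 3 and 663, 404 and 487 in Lyo 1, 2 and 3 (0.63 ± 0.13), IFITM1 at 0.67 ± 0.17 and GBP1 at -0.70 ± 0.15. Their median was -0.04 in the controls and 0.15 in the lyophilized libraries. Of 33 antioxidant and NRF2 targets, 5 were called higher and 9 lower, with GPX4, which reduces lipid peroxides, higher (0.61 ± 0.09) and NQO1 lower (-0.58 ± 0.10). Of 17 nuclear-retained and snoRNA host noncoding RNAs, 7 were called higher and 3 lower. GAS5, a snoRNA host that accumulates in arrested cells, was at 251, 138 and 154 FPKM in Controls 1, 2 and 3 and 249, 159 and 168 in Lyo 1, 2 and 3 (0.69 ± 0.09), and NEAT1, the scaffold of paraspeckles, was at 49.0, 67.7 and 55.5 FPKM in Controls 1, 2 and 3 and 22.2, 43.0 and 36.98 in Lyo 1, 2 and 3 (-0.58 ± 0.14). Of the 4 LXR targets tested, 1 was called higher and 2 lower. The shares called lower of the antioxidant list (27.3%), the plasma cell program (28.6%) and the ATF4 targets (21.1%) were near that of all genes. Counts under all 4 scalings were over 1.5 times smaller for the p53 targets and the autophagy list, with 8 higher in each, for interferon-stimulated genes (6 higher) and noncoding RNAs (4 higher), and for the unfolded protein response (7 lower), the antioxidant list (5 lower), the plasma cell program (3 lower) and the ATF4 targets (4 lower). Of the 130 called genes named, 116 were called under all 4 scalings, and the other 14 were B2M, CD74, EEF2, GNB2L1, H3F3A, HIST1H2BK, IFITM1, MYC, NME1, RNF5, RPL28, RPLP1, TPT1 and TYMS. With either library of culture 1 left out, fewer members of the interferon-stimulated, antioxidant and noncoding RNA lists were called. The noncoding RNAs still called were all lower without Control 1 and all higher without Lyo 1. The medians of these lists were 0.15, -0.13 and 0.14 without Control 1 and -0.04, -0.15 and 0.26 without Lyo 1.

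**Figure D4:**
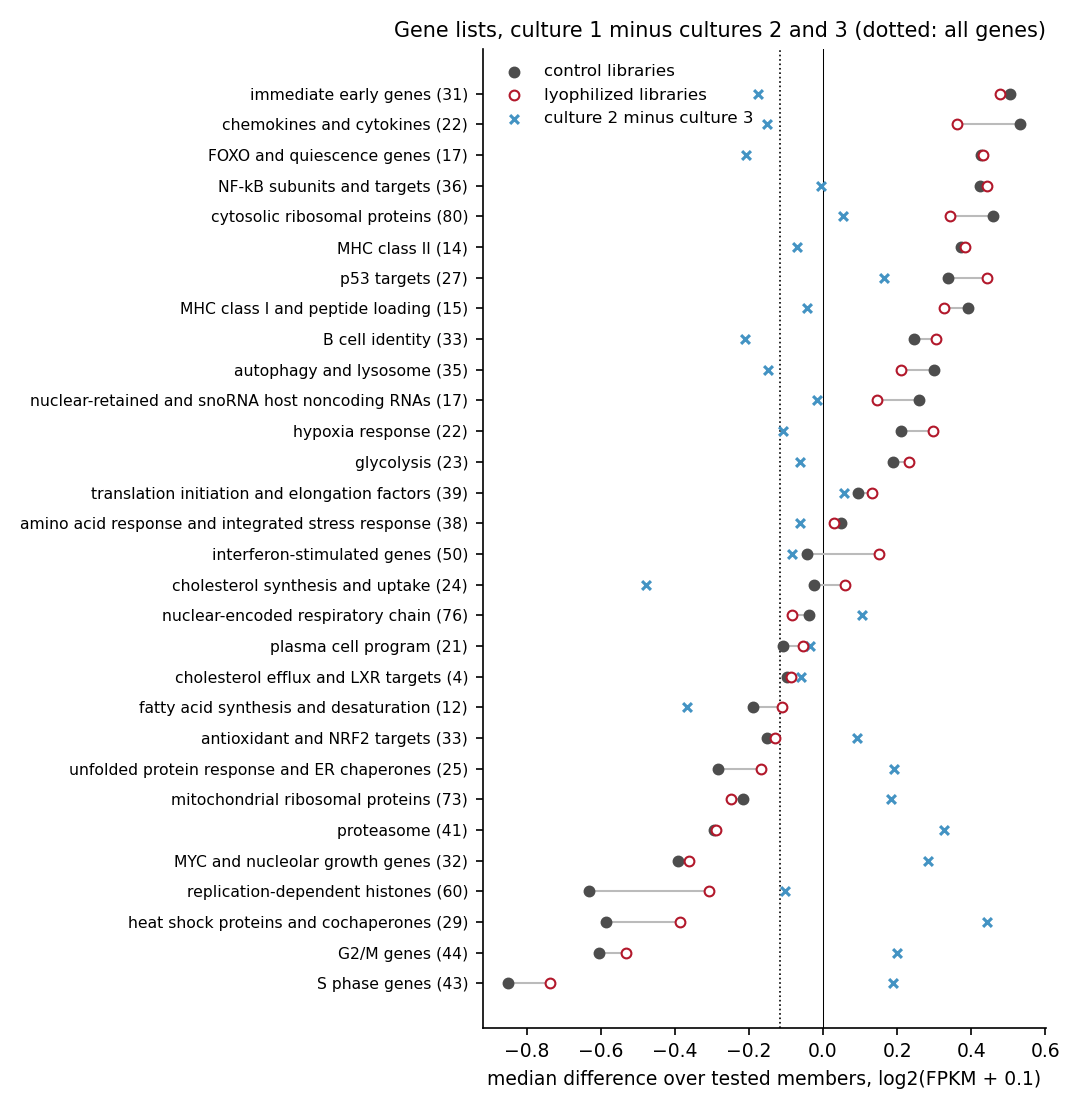
Median difference of culture 1 from cultures 2 and 3 over the tested members of 30 gene lists (number of members in brackets) in log2(FPKM + 0.1), for controls (filled) and lyophilized libraries (open), with culture 2 minus culture 3 as crosses and the median of all genes as the dotted line at -0.12. S phase genes lie lowest, at -0.85 and -0.74, and immediate early genes are among the highest, at 0.505 and 0.479. The crosses for heat shock, proteasome and cholesterol synthesis genes lie as far from 0 as some culture 1 medians.

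Taken by library, some lists placed the 3 cultures in the same order and others did not. The median deviation of the S phase genes from their treatment mean was -0.57 in Control 1 and -0.49 in Lyo 1, 0.39 and 0.31 in Control 2 and Lyo 2, and 0.18 in both Control 3 and Lyo 3. For heat shock genes the values were -0.39 and -0.26 for culture 1, 0.44 and 0.30 for culture 2, and -0.05 and -0.01 for culture 3. Culture 2 thus stood at the other end from culture 1 in these lists, with culture 3 between them. NF-kB genes showed no such gradient, with 0.28 and 0.295 for culture 1 and values between -0.17 and -0.15 for the other 4 libraries. For p53 targets culture 3 stood furthest from culture 1, at -0.171 and -0.191, with culture 2 at -0.001 and -0.055. Cholesterol synthesis genes ran from culture 3 (0.226 and 0.209) through culture 1 (-0.016 and 0.04) to culture 2 (-0.242 and -0.263). With 3 cultures, each culture is a single point on such an order.

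**Figure D5:**
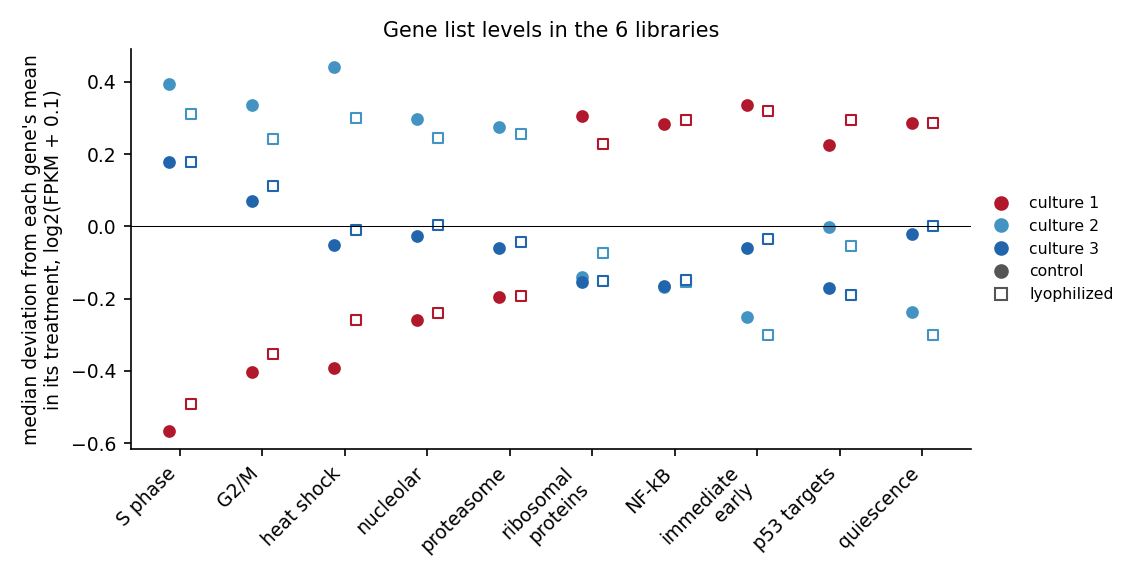
Median deviation of the members of 10 gene lists from their mean over the 3 libraries of the same treatment, in log2(FPKM + 0.1), for each library (colour for culture, filled circles for controls, open squares for lyophilized libraries). Culture 1 lies lowest in the 5 lists on the left, with culture 2 highest, and lies highest in the 5 on the right, and the control and lyophilized library of a culture lie side by side.

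Whether the difference of culture 1 itself changed with drying and storage was asked by fitting this interaction. Culture 1 was chosen on a share that was high in both of its libraries, so the question is not apart from that choice. Culture 1 has 1 library per treatment, so the spread comes from culture 2 against culture 3 alone and the lone library is assumed to vary like those. Of 11134 genes, 4 passed an adjusted p of 0.05 in limma (0.0359% of the genes tested), and 200 had an unadjusted p below 0.05. The 4 were H3F3A, HIST1H2BN, LOC100630923 and RNF5, and they were at low levels, with 3 of them below 0.001 FPKM in a single culture 1 library. H3F3A, a replacement histone gene, was at 4.07, 3.22 and 5.05 FPKM in Controls 1, 2 and 3 and 1.07e-04, 4.38 and 10.7 in Lyo 1, 2 and 3. HIST1H2BN was at 0.59, 4.52 and 5.198 FPKM in Controls 1, 2 and 3 and 2.97, 3.55 and 4.08 in Lyo 1, 2 and 3. LOC100630923 was at 1.98e-05, 0.95 and 1.56 FPKM in Controls 1, 2 and 3 and 3.95, 2.03 and 0.99 in Lyo 1, 2 and 3, and RNF5, a ubiquitin ligase listed at 7 loci, at 1.15e-05, 1.498 and 1.89 FPKM in Controls 1, 2 and 3 and 1.105, 1.12 and 1.34 in Lyo 1, 2 and 3. The lowest of the 6 values was in Lyo 1 for H3F3A and in Control 1 for the other 3. With a pseudocount of 1 no gene passed (174 had an unadjusted p below 0.05), nor with a mean FPKM above 5 (70) or with a correction for GC content and length (157). With culture as a fixed term 87 genes passed, and 25, 30, 12 and 11 did without Control 2, Control 3, Lyo 2 and Lyo 3. The SD of the difference over genes was 0.45 in the controls and 0.38 in the lyophilized libraries.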

How the data were processed

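GM12873 cells were measured as 3 controls and 3 lyophilized samples by poly(A)-selected RNA-Seq with single-end reads. The authors mapped the reads with TopHat2 2.0.7 to hg19 (GRCh37), kept reads with a unique position and deposited FPKM values computed with Cufflinks, whose version and gene annotation are not given in the sources used here. CASAVA 1.4 is also named in the submitters' processing notes. No counts were used, so FPKM carry no counting intervals, and relative depth was read from the spacing of the lowest values.

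From the deposited FPKM, 24934 records were reduced to 23284 symbols by the highest mean, small RNAs that lack poly(A) tails were dropped, and 11134 genes whose mean FPKM passed 1 in either treatment were kept. Limma 3.58.1 in R 4.3.3 (mean-variance trend, Benjamini-Hochberg adjustment) was run on log2(FPKM + 0.1), a scale that understates differences of low genes. The fit was also run on simulated data with independent noise in each library. Those data hold no pairing of libraries within a culture and cannot speak to it. Replicate numbers pair the samples by the labels, and the deviations of same-numbered libraries correlated at 0.716, 0.603 and 0.476. The p-values measure spread between libraries.

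Culture 1, the gene lists and the alternatives (pseudocount, filter, scaling, variance, culture as a block, correction for transcript GC content and length with 10763 of the genes, each library left out) were chosen with earlier results of these data known. Named genes are the 15 with the largest difference in each direction among those called, with a mean FPKM of at least 5 and culture 1 beyond both others in both treatments, and from each list up to 5 called members with the largest difference and the 2 with the highest mean. Of these, some were left out for length and a few are not reported here, and the genes that passed the interaction test were added after their values were seen. RefSeq promoters on GRCh38.p14 were matched by symbol for 71.5% of the genes tested, too few to compare motifs between called and other genes, and for at least 80% of each list for which motifs are given. Python 3.11.15, pandas 2.3.3, numpy 2.4.6, scipy 1.17.1 and matplotlib 3.10.9 were used.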

Additional observations from a re-analysis of the deposited data

Results flagged for a closer look

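In 4 genes the difference of culture 1 from cultures 2 and 3 passed limma's interaction term between control and lyophilized libraries at an adjusted p of 0.05. Culture 1 has 1 library per treatment, assumed here to vary like those of cultures 2 and 3, which alone give the spread. The difference in the lyophilized libraries minus that in the controls was -6.13 log2 units for H3F3A, 2.49 for HIST1H2BN, 5.14 for LOC100630923 and 4.02 for RNF5. Apart from HIST1H2BN, each of these values rests on a library in which the gene is below 0.001 FPKM, so the size depends on the pseudocount and is no measure of a fold. No gene passed with a pseudocount of 1 or a mean FPKM above 5. Only uniquely mapped reads were kept, and HIST1H2BN is of the replication-dependent histone class, whose copies are near-identical.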

How the results depend on the processing

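The number of genes called, 3660 with all 6 libraries, stayed between 2609 and 5065 under other pseudocounts, a filter at a mean FPKM of 5, the other 3 scalings, other variance settings, every record kept, the correction for GC content and length, and the replicate block as a random effect (2609). It was 1730 with no filter on low values, 2066 with 1 mean value per culture and 2369 with the replicate block together with the correction, and it ranged from 281 to 3781 over single libraries left out, lowest without Control 1. The cause of these shifts was not tested. The interaction, with 4 genes, gave 0 with a pseudocount of 1, a mean FPKM above 5 or the correction, 87 with the replicate block as a fixed term (811 at an unadjusted p below 0.05 in limma), and 11 to 30 with a library of culture 2 or 3 left out; these last 2 settings were added with the data in view. The share of abundant genes differed by 5.31 points for 100 genes, 4.17 points for 1000 genes and 2.74 points without ribosomal protein genes. Of the genes lower in the controls, 92.2% stayed on the same side in the lyophilized libraries with a limit of 1.5-fold and 73.1% after median centring.

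Median centring moved the median of the ribosomal protein genes to 0.526, of S phase genes to -0.645, of NF-kB genes to 0.546 and of p53 targets to 0.497. Quantile normalization gave 0.053 for ribosomal protein genes, with 18 called, and 0.488 for NF-kB genes, which were at 0.400 with a pseudocount of 1 and 0.343 with the correction. With single libraries left out, the ribosomal protein median ran from 0.343 to 0.458 and its calls from 2 to 74, the NF-kB median from 0.388 to 0.443 and its calls from 10 to 24, and the calls lower from 18 to 42 for S phase, 2 to 41 for G2/M and 0 to 20 for heat shock genes, and higher from 3 to 14 for p53 targets. With the replicate block as a random effect, HSPA8 (-0.56) was called as lower, H3F3A (-3.05) and RNF5 (-2.15) were no longer called, and the other genes named kept their call. Counts fell in further lists than the mitochondrial ribosomal protein, p53 and hypoxia lists given above. Calls lower went from 31 to 23 for replication-dependent histones, 19 to 14 for MYC and nucleolar genes and 16 to 13 for the proteasome. Calls higher went from 13 to 10 for the autophagy list and from 7 to 5 for noncoding RNAs. Calls lower stayed at 42 for S phase genes and went from 13 to 14 for heat shock genes.

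Genes not called had differences that turned sign. BAX was at -0.027 after rescaling to TPM and at -0.074 with the correction, alone or with the block. LDHA was at 0.075 after centring and at 0.073 with the correction, alone or with the block. LTA was at -0.051 after quantile normalization and at -0.070 after rescaling to TPM or with the correction, alone or with the block. RPLP1, called higher, was at -0.028 after quantile normalization. H3F3A, at -3.05, ranged over single libraries left out from -6.12 to 0.012, highest without Lyo 1, and LOC100630923, at -1.16, from -3.72 to 1.41, highest without Control 1, each the library in which it is below 0.001 FPKM. Precision is limited by 3 cultures and, in the low genes, by depth, which the FPKM values do not state. The authors list Control 1 with the fewest raw reads, the lowest share of uniquely mapped reads and the highest share of duplicated reads. The part of these in the calls that leaned on Control 1 was not tested.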
